A study of Mus musculus with 6 samples.

Results

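The transcripts of 10 costimulatory and inhibitory receptors were followed in CD4+ T cells of unimmunized female mice. Cd28, Icos and Cd226 favour activation, and Tigit, Cd96, Pdcd1, Btla, Cd160, Lag3 and Havcr2 are mostly known as brakes. The 10 were chosen as a gene family, by symbol, from the platform annotation. Each had 1 transcript cluster on the array, so that all 10 were measured, among 23410 named transcript clusters tested. The samples were 3 pools of C57BL/6J (B6, wild type) females and 3 pools of females sired by C57BL/6J males with the Y chromosome of the SJL strain (B6-ChrYSJL). All were 8 weeks old, came from mixed sex litters and had not been immunized, and each pool joined cells from inguinal, brachial and axillary nodes of 5 mice, sorted as live CD4+TCRβ+ cells and measured on 1 Affymetrix Mouse Gene 1.0 ST array. Females inherit no Y chromosome, so both groups have the B6 background and differ in the Y chromosome of their sires. The comparison asks whether the CD4+ T cells of the daughters differ when the sire's Y chromosome does.

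A T cell that meets its antigen needs a further signal to respond. CD28 gives that signal when it binds CD80 or CD86 on an antigen-presenting cell, ICOS adds to it in cells that were already activated, and the inhibitory receptors, most of which appear after activation, recruit phosphatases or compete for the same ligands. PD-1 (Pdcd1) binds PD-L1 and PD-L2, BTLA and CD160 bind the TNF receptor family member HVEM (Tnfrsf14), LAG-3 binds MHC class II, and TIM-3 (Havcr2) has galectin-9 (Lgals9) among its ligands. CD226, TIGIT and CD96 form a set of their own, in which CD226 activates and TIGIT restrains on the same ligands, CD155 (Pvr) and nectin-2. Among CD4+ T cells, ICOS and TIGIT are known to be high on regulatory cells, and ICOS and PD-1 on follicular helper cells, while CD160 is better known from CD8 T cells and natural killer cells.

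Values are log2 signals after RMA, the authors' normalization, in which a difference of 1 is a 2-fold difference. Probe sets differ in how brightly they bind, so each receptor was compared between pools and not with another receptor's level. Background was set at 5.98, below which 95% of 1210 transcripts of odorant and vomeronasal receptors lay. Of the 10 receptors 9 lay above it, with Lag3 and Cd160 closest (0.45 and 0.53 above), and Havcr2 lay under it, with a margin of −1.52. Cd28, Icos and Pdcd1 lie on chromosome 1, Tigit, Cd96 and Btla on 16, Cd160 on 3, Lag3 on 6, Havcr2 on 11 and Cd226 on 18. The T cell label was checked on 11 measured T cell identity genes, which were all above background, and for 0 of which limma gave an unadjusted p under 0.05. For 6 of them (Zap70, Cd247, Thy1, Cd6, Cd5 and Lat) every B6 pool was above every B6-ChrYSJL pool, beside 9.42% of all transcripts, with differences of −0.11 to −0.04. Cd4 was 11.54 in B6 and 11.51 in B6-ChrYSJL, and Cd3e 12.49 and 12.50, both with overlapping pools. Arrays correlated at 0.995 to 0.996 across transcripts, and no pool stood apart from its group.

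No receptor passed a false discovery rate (FDR) of 0.05 in limma, where 4 of all 23410 transcripts did (0.0171%), and the adjusted p of the 10 lay between 0.379 and 0.932. At an unadjusted p under 0.05, 4 of the 10 were lower in B6-ChrYSJL (Icos, Tigit, Pdcd1 and Cd160), beside 5.92% of all transcripts, and 0 were higher, beside 4.69% (10.6% in either direction). In the linear model of the methods, without moderated variances, the 4 receptors at that level were 2 lower (Icos and Pdcd1) and 2 higher (Cd28 and Cd226), and Tigit and Cd160 were not among them. Over transcripts above background the share of lower ones was 7.15%. The other 6 receptors had log2 fold changes between −0.04 and 0.11. The 10 thus split into 5 negative and 5 positive values, with a median of −0.01 where the median of all transcripts was −0.0036.

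**Figure D1:**
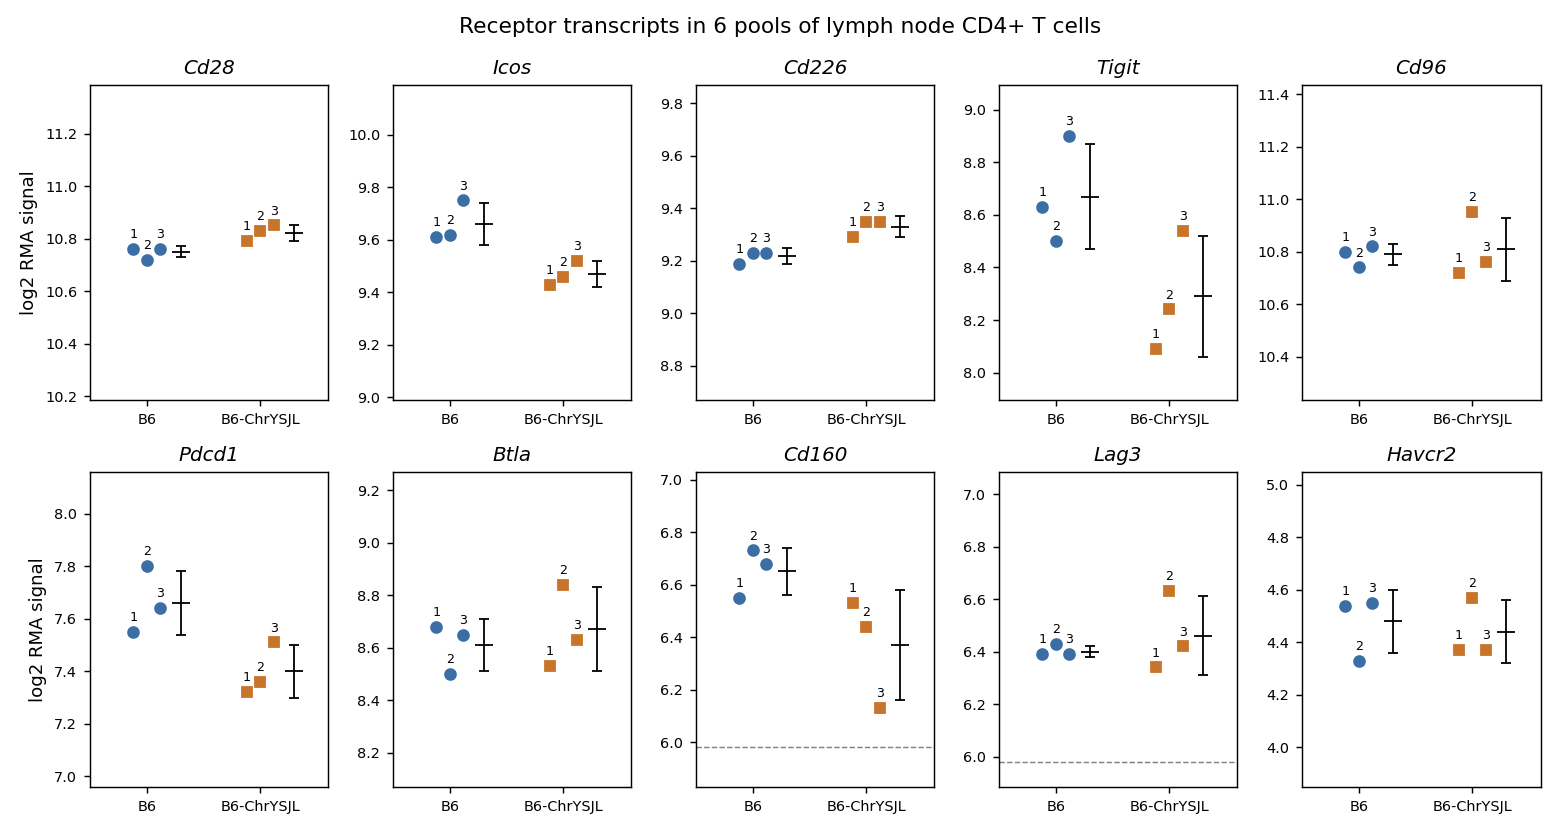
Log2 RMA signal (vertical) of each receptor in the B6 (circles) and B6-ChrYSJL (squares) pools, numbered by replicate, with the group mean and SD (n = 3) to the right of each group. Every panel spans the same height on the log2 scale, and the dashed line is the background level of 5.98 where it falls in the panel. Icos, Pdcd1 and Cd160 have all B6 pools above all B6-ChrYSJL pools, Cd28 and Cd226 the reverse.

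Promoter windows of RefSeq (build GRCm38.p6, 250 bases before to 50 after the start of the gene) were examined for 6 of the 10 receptors. No window was examined for Cd28, Icos, Lag3 or Cd226. The windows of Tigit and Pdcd1 are shown because both transcripts were lower in B6-ChrYSJL. That of Cd96 is shown because it shares a ligand with Tigit and differed little. Capitals mark the core that binds NFAT, a factor switched on by T-cell receptor signaling, written GGAAA or, on the other strand, TTTCC.
Tigit, chr16:43664135-43664434 (- strand): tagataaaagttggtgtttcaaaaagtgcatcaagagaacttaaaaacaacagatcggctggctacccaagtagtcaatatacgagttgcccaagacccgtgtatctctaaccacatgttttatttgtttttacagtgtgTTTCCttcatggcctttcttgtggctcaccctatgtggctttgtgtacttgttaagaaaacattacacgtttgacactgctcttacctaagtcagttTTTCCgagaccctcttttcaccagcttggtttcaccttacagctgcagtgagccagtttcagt
Pdcd1, chr1:94052504-94052803 (- strand): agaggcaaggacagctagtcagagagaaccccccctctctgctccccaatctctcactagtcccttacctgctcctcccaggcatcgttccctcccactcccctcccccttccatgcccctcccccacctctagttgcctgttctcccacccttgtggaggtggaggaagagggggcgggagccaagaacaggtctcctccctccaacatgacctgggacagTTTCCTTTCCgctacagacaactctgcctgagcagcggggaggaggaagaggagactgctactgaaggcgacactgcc
Cd96, chr16:46120199-46120498 (- strand): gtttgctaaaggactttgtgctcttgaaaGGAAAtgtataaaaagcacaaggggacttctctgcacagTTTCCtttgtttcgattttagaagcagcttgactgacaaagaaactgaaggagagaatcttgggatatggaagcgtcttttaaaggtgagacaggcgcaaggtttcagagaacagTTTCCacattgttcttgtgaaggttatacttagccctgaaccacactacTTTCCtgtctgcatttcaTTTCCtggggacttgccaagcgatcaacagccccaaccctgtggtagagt
The core occurred 2 times in the Tigit window, 2 times next to each other in that of Pdcd1 and 5 times in that of Cd96, while that of Btla held 0. Cd160, which was also lower, has 2 windows, not printed here, with 0 and 1 matches. At least 1 match was found in 61.3% of 32851 mouse promoter windows, 2 or more in 26.7% and 3 or more in 9.42%. Neither the AP-1 motif TGANTCA (7.81% of windows) nor the forkhead motif TGTTTAC (3.65%), searched on both strands, was found in the windows shown. The Pdcd1 window was richer in G and C (60.7%) than those of Cd96 (43.7%) and Tigit (41.3%).

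The costimulatory receptors of the CD28 family differed between the strains in opposite directions, neither of them past the FDR. Cd28 encodes the main costimulatory receptor of resting T cells (transcript cluster 10346783), and its signal was 10.76, 10.72 and 10.76 in the B6 pools and 10.79, 10.83 and 10.85 in the B6-ChrYSJL pools. The groups did not overlap, by a margin of 0.03, with the B6-ChrYSJL pools on top. The log2 fold change was 0.08 (95% interval −0.06 to 0.22, adjusted p = 0.689 from limma), a ratio of 1.05. The margin was lost when arrays were centred on their medians.

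Icos (10346799), the inducible costimulator, lay at 9.61, 9.62 and 9.75 in B6 and at 9.43, 9.46 and 9.52 in B6-ChrYSJL. All B6 pools were above all B6-ChrYSJL pools, by at least 0.10. The means were 9.66 ± 0.08 (SD, n = 3 pools) and 9.47 ± 0.05, and the difference, −0.20 (standard error 0.07, 95% interval −0.35 to −0.04), is a change in signal of −12.7%. Its unadjusted p was 0.0207 and its adjusted p 0.400 in limma. Without B6 replicate 3 or without B6-ChrYSJL replicate 1 the unadjusted p was 0.0811 and 0.0604, with differences of −0.15 and −0.18.

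Ctla4, the inhibitory relative that competes with CD28 for CD80 and CD86, is the protein-coding gene between Cd28 and Icos on the chromosome. It was 9.63, 9.67 and 9.80 in B6 and 9.40, 9.42 and 9.38 in B6-ChrYSJL, a difference of −0.30 (standard error 0.07, adjusted p = 0.286 in limma). Of these 3 neighbouring genes, Ctla4 and Icos were thus lower without overlap between the groups, and Cd28 was not.

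Set against Cd28 on the same array, which leaves out any shift common to the array, Icos was lower in every B6-ChrYSJL pool. Relative to the B6 mean, the Icos signal minus that of Cd28 was −0.06, −0.01 and 0.07 in B6 and −0.28, −0.29 and −0.25 in B6-ChrYSJL, an average change of −0.27. The change for Pdcd1 minus Cd28 was −0.34, with B6 pools from −0.12 to 0.16 and B6-ChrYSJL pools from −0.39 to −0.26. Part of these changes is the rise of Cd28 itself (0.08). Cd28 was higher, and Icos and Pdcd1 lower, in every B6-ChrYSJL pool. The lack of overlap against Cd28 therefore follows from the single values and adds no support to them. Set against Cd4 instead, the average change was −0.16 for Icos, with overlap between the groups. For Pdcd1 it was −0.23, without overlap. These differences between genes were given no test.

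**Figure D2:**
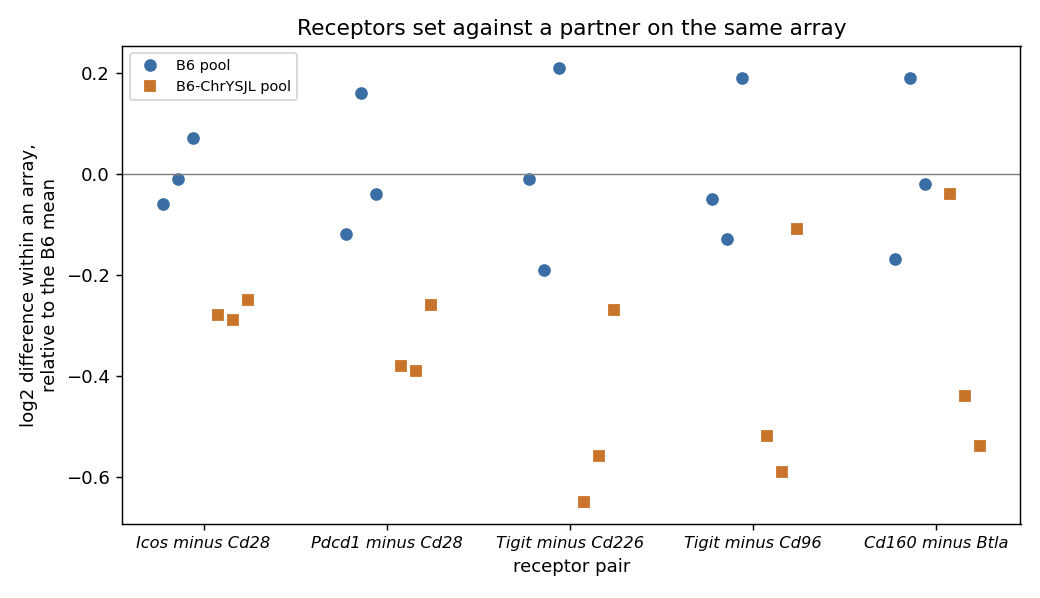
Log2 signal of one receptor minus that of a partner on the same array, relative to the mean of the B6 pools (vertical), for 5 receptor pairs (horizontal), with B6 pools as circles and B6-ChrYSJL pools as squares. For Icos or Pdcd1 minus Cd28 and for Tigit minus Cd226 the groups do not overlap, with average changes of −0.27, −0.34 and −0.50, while Tigit minus Cd96 and Cd160 minus Btla overlap. Where the groups do not overlap, this follows from the values of the single receptors, as Cd28 and Cd226 were higher in every B6-ChrYSJL pool.

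Among the receptors that bind CD155, Tigit was lower and Cd226 higher in B6-ChrYSJL, neither past the FDR, and Cd96 differed little. Tigit (10439527), the inhibitory member, had the largest difference of the 10 receptors, with 8.63, 8.50 and 8.90 in B6 and 8.09, 8.24 and 8.54 in B6-ChrYSJL. It also varied most within both groups, and B6-ChrYSJL replicate 3 lay 0.04 above B6 replicate 2, so that the groups overlapped. The means were 8.67 ± 0.20 (SD, n = 3 pools) and 8.29 ± 0.23, a log2 fold change of −0.38 (standard error 0.14, 95% interval −0.69 to −0.07) or −23.3% in signal. Its unadjusted p was 0.0217 and its adjusted p 0.401 in limma, and the difference was −0.27 without B6 replicate 3 (unadjusted p = 0.0758), −0.28 without B6-ChrYSJL replicate 1 (0.0843), −0.36 without B6-ChrYSJL replicate 2 (0.0638) and −0.51 without B6-ChrYSJL replicate 3 (0.00441).

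Cd226 (10457168), which encodes the activating receptor DNAM-1, was at 9.19, 9.23 and 9.23 in B6 and at 9.29, 9.35 and 9.35 in B6-ChrYSJL. The groups did not overlap, with a margin of 0.05, and B6-ChrYSJL was the higher one. The log2 fold change was 0.11 (standard error 0.06, 95% interval −0.03 to 0.25), with an unadjusted p of 0.102 and an adjusted p of 0.549 in limma. Its unadjusted p was 0.0325 in limma when the signals were quantile-normalized again.

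Cd96 (10439744), whose part in T cells is described both as inhibitory and as costimulatory, was at 10.80, 10.74 and 10.82 in B6 and at 10.72, 10.95 and 10.76 in B6-ChrYSJL. The groups overlapped, and the difference was 0.02 (95% interval −0.15 to 0.20). Its ligand Pvr differed by 0.02 (standard error 0.07), and Nectin2 was below background in both groups. Within arrays, Tigit minus Cd226 was at −0.01, −0.19 and 0.21 in B6 relative to the B6 mean and at −0.65, −0.56 and −0.27 in B6-ChrYSJL. The inhibitory transcript was therefore lower against the activating one in all 3 B6-ChrYSJL pools, with an average change of −0.50, a ratio 1.41-fold lower. The margin between the Cd226 groups exceeded the overlap of the Tigit groups, so this separation follows from the single values and adds no support. Set against Cd4, Tigit had an average change of −0.35, and the groups overlapped.

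Pdcd1 (10356866) encodes PD-1, which damps signals from the T-cell receptor and CD28, and had the smallest unadjusted p of the 10. Its signal was 7.55, 7.80 and 7.64 in B6 and 7.32, 7.36 and 7.51 in B6-ChrYSJL. The B6 pools were all above the B6-ChrYSJL pools, but by a margin of 0.04, and the groups overlapped when the signals were quantile-normalized again. The means were 7.66 ± 0.12 (SD, n = 3 pools) and 7.40 ± 0.10, and the difference of −0.26 (standard error 0.09, 95% interval −0.46 to −0.07) is a change in signal of −16.8%. The unadjusted p was 0.0149 and the adjusted p 0.379 in limma, and the former was 0.0557 without B6 replicate 2 and 0.0531 without B6-ChrYSJL replicate 1. Of its ligands, Cd274 (PD-L1) differed by −0.02 and Pdcd1lg2 (PD-L2) by −0.18, both with overlapping groups.

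Of the HVEM-binding receptors, Cd160 had an interval below 0 and Btla did not, but Cd160 minus Btla within arrays overlapped between the groups (average change −0.34), and the difference between them was not tested. Btla (10435982) was 8.68, 8.50 and 8.65 in B6 and 8.53, 8.84 and 8.63 in B6-ChrYSJL, with overlap and a difference of 0.05 (95% interval −0.16 to 0.27). Cd160 (10500406) was 6.55, 6.73 and 6.68 in B6 and 6.53, 6.44 and 6.13 in B6-ChrYSJL. These groups did not overlap, by a margin of 0.02, and B6-ChrYSJL replicate 3 was the lowest. The Cd160 difference was −0.28 (standard error 0.11, 95% interval −0.53 to −0.04, adjusted p = 0.425 in limma), a change in signal of −17.9%, and it was −0.17 without B6-ChrYSJL replicate 3, where its unadjusted p went from 0.0293 to 0.0922. It was 0.0851 without B6 replicate 2 and 0.0673 without B6 replicate 3. Their ligand Tnfrsf14 (HVEM) was 9.23 to 9.25 in the B6 pools and 9.11 in every B6-ChrYSJL pool, without overlap, a difference of −0.13 with an unadjusted p of 0.0632 in limma.

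Lag3 (10547906), the CD4-like receptor for MHC class II, was 6.39, 6.43 and 6.39 in B6 and 6.34, 6.63 and 6.42 in B6-ChrYSJL. Its groups overlapped, and the difference was 0.06 (95% interval −0.13 to 0.26). Havcr2 (10375443), known from differentiated type 1 helper cells and myeloid cells, stayed between 4.33 and 4.57 in all 6 pools, below background, so that a difference (−0.04) cannot be read as one of expression.

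**Figure D3:**
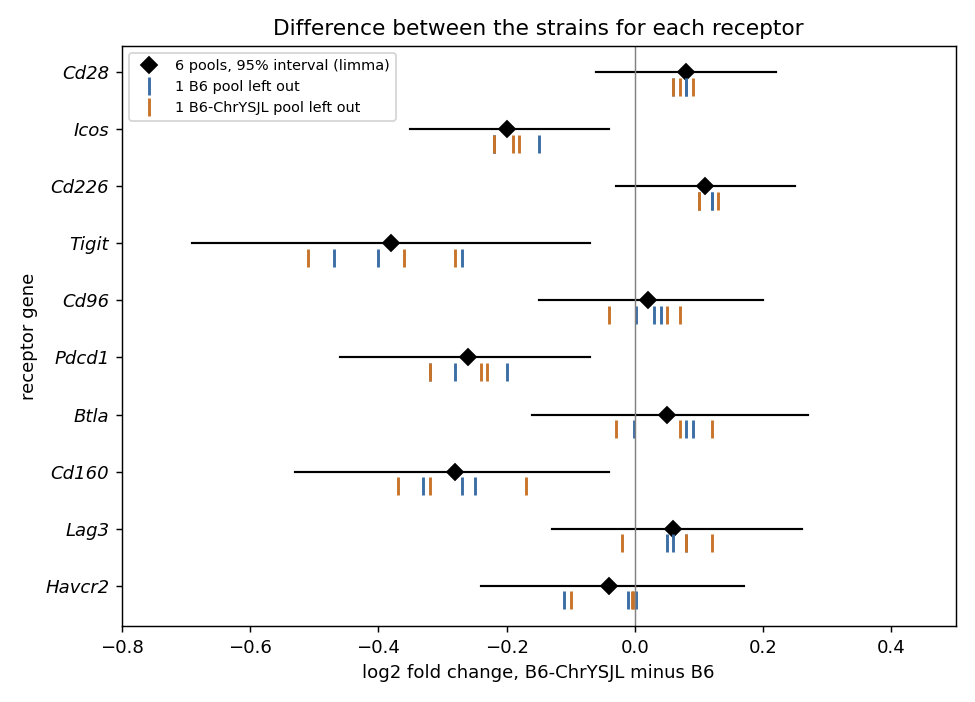
Log2 fold change of each receptor, B6-ChrYSJL minus B6 (horizontal), with its 95% interval from limma (diamonds and lines, 6 pools) and the values after leaving out each pool in turn (ticks beneath, coloured by the strain of the pool left out). Icos, Tigit, Pdcd1 and Cd160 have intervals below 0 and stay below 0 without any single pool, while Cd96, Btla, Lag3 and Havcr2 lie on both sides.

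The pools of 5 of the 10 receptors did not overlap between the groups, beside 17.1% of all transcripts. Of these, 3 receptors had every B6 pool above every B6-ChrYSJL pool (Icos, Pdcd1 and Cd160), beside 9.42% of all transcripts, and 2 the reverse (Cd28 and Cd226), beside 7.68%. The margins of these 5 were 0.02 to 0.10. An exact permutation test of 3 pools against 3 gives no p under 0.1, so that single receptors were not tested in that way.

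Across the 6 arrays, Icos and Tigit followed each other most closely among the lower receptors (Pearson's r of 0.94, and 0.91 after the group means were removed). For Cd28 and Icos, r was −0.6 over the arrays and 0.65 within groups. Cd96, Btla, Lag3 and Havcr2, none of which had an interval apart from 0, had r within groups of 0.95 for Cd96 and Btla, 0.88 for Cd96 and Lag3, 0.77 for Btla and Lag3, 0.86 for Cd96 and Havcr2, 0.93 for Btla and Havcr2 and 0.54 for Lag3 and Havcr2, the last 3 with Havcr2 below background. All 4 were highest in B6-ChrYSJL replicate 2. These values describe 6 arrays that share one normalization, and they carry no test. The transcripts most like Pdcd1 over the 6 arrays, of 12296 named genes above background, were Tk1 (r = 0.9896), Fkbp15 (0.9859), Cpsf4l (0.9848), Myl10 (0.9845) and Thrap3 (0.9816), and 35 reached an r of 0.95.

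Other receptors of the same kind leaned the way of Icos and Tigit. Of 23 further costimulatory and inhibitory receptors, 6 were lower and 0 higher at an unadjusted p under 0.05 in limma. The shares of all transcripts to set beside such counts, here and for the lists below, were 5.92% and 4.69%. Of the 23 receptors 0 passed the FDR, and the median log2 fold change was −0.12. The lowest p belonged to Klrg1 (−0.75, below background on average), Tnfrsf9 (4-1BB, −0.29) and Ctla4, and the others were Tnfrsf18 (GITR, −0.20), Ly9 (−0.19) and Tnfrsf4 (OX40, −0.26). All but Ly9 are also on the list of regulatory T cell genes. Cd27, a costimulator of resting T cells, differed by −0.04 and Vsir (VISTA) by −0.01.

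Of 18 ligands of the receptors, 14 were above background, 3 were lower and 2 higher at that p, and the median was −0.0023. The lower ones were Lgals3 (galectin-3, −0.29), Cd86 (−0.36) and Icosl (−0.21). The higher ones were the class II genes H2-Ab1 (0.64) and H2-Eb1 (0.37), to whose products LAG-3 binds and which also stand on the B cell list. Lgals3 is also on the list of activated or memory cells.

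Of 22 signaling genes downstream of the receptors, 2 were lower and 0 higher, beside 5.92% and 4.69% of all transcripts. All 22 were above background, where the share of lower transcripts was 7.15%, so the count is near that share. The lower ones were Pik3cd (−0.19), the leukocyte PI3-kinase subunit that ICOS and CD28 engage, and Grb2 (−0.21), an adaptor that binds the CD28 tail. Ptpn11 (SHP-2), the phosphatase recruited by PD-1 and BTLA, differed by −0.15 with an unadjusted p of 0.0581 in limma. Of 15 transcription factors known to act on such receptor genes, 6 were lower and 0 higher, led by Batf (−0.27), Nr4a1 (−0.37) and Prdm1 (−0.30), with a median of −0.07. Tox, a factor of exhausted T cells, differed by −0.07 and Nfatc1 by −0.02.

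Icos, Tigit and Pdcd1 are also markers of subsets within the sort, and in a bulk sample fewer cells of a type and less RNA per cell cannot be told apart. Of 18 regulatory T cell genes 14 were lower and 0 higher at an unadjusted p under 0.05, with a median of −0.28. The mean of the list, each gene centred over the arrays, was 0.10 to 0.25 in B6 and −0.18 to −0.12 in B6-ChrYSJL. Only Itgae (CD103) passed the FDR, at −0.87, and Foxp3, the factor that defines these cells, differed by −0.21 (standard error 0.06). The list did not fall as a whole. Il2ra (CD25) and Lrrc32 each differed by −0.02, Ikzf2 by −0.18 and Gpr83 by 0.18, all with overlapping groups. Within arrays, the average change of Icos relative to Foxp3 was 0.02, and that of Tigit relative to Foxp3 was −0.17, with overlap.

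Of 18 genes of activated or memory cells 14 were lower and 0 higher (median −0.36), led by Ccr2 (−0.83), S100a6 (−0.77) and Ccr6 (−0.52). Ccr2 lay only 0.06 above background on average, and its B6-ChrYSJL pools (5.51 to 5.80) were under it. Id2 (−0.15), Crip1 (−0.03), Ccl5 (−0.03) and Cd69 (0.13) had overlapping groups. The list averaged 0.15 to 0.23 in B6 and −0.25 to −0.12 in B6-ChrYSJL. Of 12 follicular helper genes 1, Maf (−0.51), was lower and 0 were higher, with a median of −0.13, and the groups overlapped only in B6 replicate 2, where the list averaged −0.06. Pdcd1 relative to Cxcr5, the chemokine receptor that places these cells, had an average change of 0.02. The groups overlapped, with B6-ChrYSJL pools at 0.31, −0.31 and 0.07 relative to the B6 mean. Cxcr5 lay only 0.13 above background on average, so little can be read from this value.

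Both CD8 markers were lower at an unadjusted p under 0.05, Cd8a at −0.54 and Cd8b1 at −0.28 (standard errors 0.12 and 0.09), and their mean was 0.09 to 0.29 in B6 and −0.30 to −0.15 in B6-ChrYSJL. Within arrays the average change of Cd160 relative to Cd8a was 0.25. Of 15 natural killer and innate lymphoid genes 5 were above background and 2 were lower, Gzmb and Klrb1b, both below background, as were the defining markers Ncr1 and Klrb1c. That list averaged 0.02 to 0.03 in B6 and −0.06 to 0.01 in B6-ChrYSJL, without overlap. Of 15 B cell genes, 8 of them above background, 3 were higher and 0 lower (median 0.23). The list means were −0.16 to −0.04 in B6 and −0.21 to 0.32 in B6-ChrYSJL. The higher ones were the class II genes H2-Ab1 and H2-Eb1, and Ebf1, which was below background. Of 19 myeloid and dendritic genes 2 were higher and 1 lower (6 above background), and of 4 measured γδ T cell and 4 platelet genes 0 had such a p. The gate on CD4 and TCRβ is meant to leave out CD8 T cells, natural killer cells, B cells, myeloid cells and γδ T cells. How fully it did so was not measured, and both CD8 markers lay above background. The part of any of these cells in the receptor differences was not tested.

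**Figure D4:**
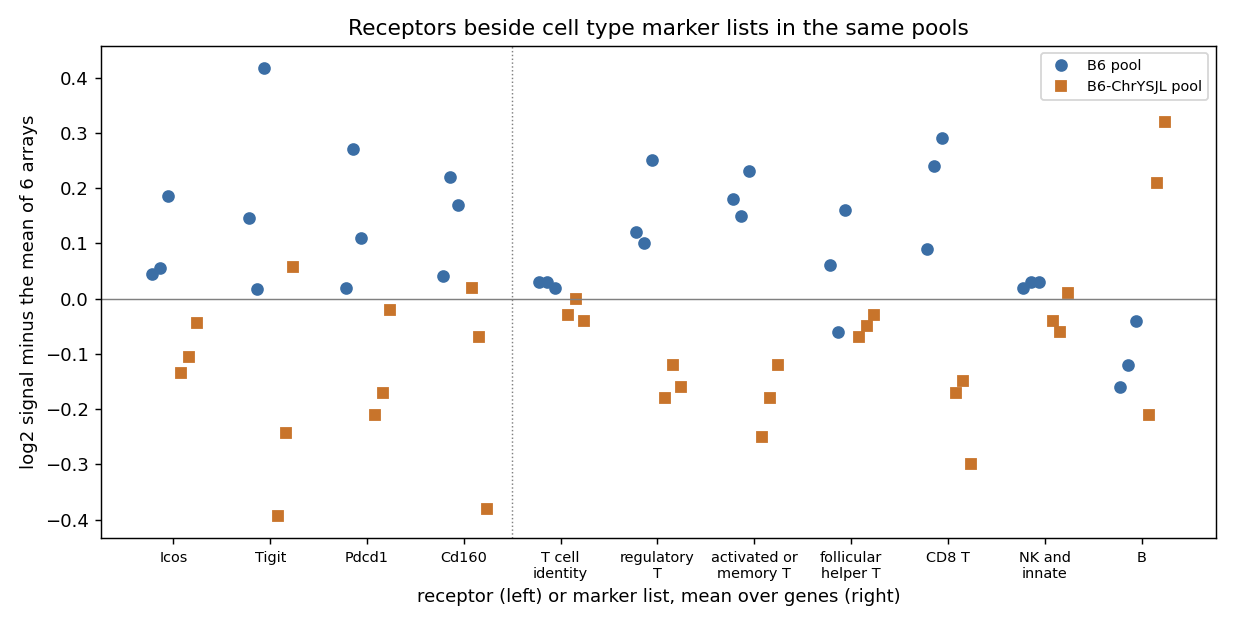
Log2 signal minus the mean of the 6 arrays (vertical) for the receptors that were lower in B6-ChrYSJL at an unadjusted p under 0.05 (left of the dotted line) and for the mean of 7 marker lists (right), with B6 pools as circles and B6-ChrYSJL pools as squares. The regulatory, activated or memory and CD8 lists separate the groups as Icos, Pdcd1 and Cd160 do. So do the T cell identity list, whose pools lie within 0.04 of 0, and the natural killer and innate list, from −0.06 to 0.03.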

How the data were processed

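RNA of sorted lymph node CD4+TCRβ+ cells was hybridized for 6 pools, 3 per strain. The authors deposited RMA values on the log2 scale, made in Partek Genomic Suites, and GCOS and mm9 are further named in the submitters' processing notes. RMA equalizes the arrays' distributions and compresses differences of dim transcripts. Values were used as deposited. Of 35556 transcript clusters, 21789 had 1 gene symbol, 1621 several and 12146 none here, and the 23410 with a symbol were tested.

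Groups came from the sample titles. Strains were compared in limma 3.58.1 (R 4.3.3) by lmFit and eBayes, and p-values were adjusted by Benjamini-Hochberg over all tested transcripts. With 3 arrays per group, the median standard error was 0.0832. The code was tested on simulated data, where 49% of transcripts given a log2 change of 0.5 passed the FDR, and 96% of those given 1. The largest receptor difference was −0.38, so changes of the size seen here can be missed.

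The receptors, lists and tests were chosen with earlier results of these data known. By rule, the text named all 10 receptors, up to 3 genes per list with the smallest p, Cd4, Cd3e and the 5 transcripts most like Pdcd1. Further list genes, Ctla4 beside Cd28 included, were named after their values were seen. Variance models, array weights, filters, normalizations, a block for the replicate number and the omission of single pools were tried, and pool overlap under other normalizations was added after seeing the data. Promoter sequences are from RefSeq, GRCm38.p6. Figures were drawn with matplotlib 3.10.9 in Python 3.11.15.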

Additional observations from a re-analysis of the deposited data

How the results depend on the processing

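Under the alternatives that kept all pools, and without each pool in turn, 0 receptors passed an FDR of 0.05, and Icos, Tigit, Pdcd1 and Cd160 stayed lower in B6-ChrYSJL and Cd28 and Cd226 higher. The count of receptors at an unadjusted p under 0.05 was 4 as reported, 5 when quantile-normalized again, with Cd226 added, and 1 to 4 with a pool left out (1 without B6 replicate 3 or B6-ChrYSJL replicate 1, 2 without B6 replicate 2). In the unmoderated linear model of the methods, fitted with limma but without moderation, it was also 4, but Cd28 and Cd226 took the place of Tigit and Cd160. The median over the receptors was −0.01 as reported, 0.02 over transcripts above background, which leaves out Havcr2, and −0.07 to 0.03 with a pool left out. The directions of 5 values turned, among receptors near 0: without B6-ChrYSJL replicate 2, Cd96, Btla and Lag3 were at −0.04, −0.03 and −0.02, without B6 replicate 2 Btla was at −0.0014, and without B6 replicate 3 Havcr2 was at 0.0021. With a pool left out, Cd96 ranged from −0.04 to 0.07, Btla from −0.03 to 0.12, Lag3 from −0.02 to 0.12 and Havcr2 from −0.11 to 0.0021. The cause was not tested.

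The transcripts past an FDR of 0.05 numbered 4 as reported, 55 with the intensity trend, 13 over transcripts above background, 11 with median-centred arrays, 2 when quantile-normalized again, 0 in the unmoderated model and over all deposited clusters (2274 and 3435 at an unadjusted p under 0.05), and 0 to 7 with a pool left out. With the replicate number as a block there were 3, and 4 receptors at an unadjusted p under 0.05. Tigit then had an unadjusted p of 0.00291 in limma, beside 0.0217 without the block, and an adjusted p of 0.425. Over all tested transcripts, same-numbered pools did not deviate together (r of −0.000101, −0.0358 and −0.0166). These correlations cannot show whether such pools share more than a number. The alternative of averaging over a gene's transcript clusters changed nothing, since each receptor has 1. List genes at an unadjusted p under 0.05 numbered 49, and 38 to 54 under the alternatives. Receptors whose pools did not overlap numbered 5, and 4 after median-centring (without Cd28) or repeated quantile normalization (without Pdcd1). Signal over background limits Cd160, Lag3 and Havcr2 most.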
